A study of Mus musculus with 24 samples.

Results

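Calcium handling by the sarcoplasmic reticulum was examined in mouse quadriceps through 10 genes chosen for their role in it: the calcium pumps Atp2a1 and Atp2a2, the calsequestrins Casq1 and Casq2, the pump inhibitors Pln and Sln, the calcium buffer Pvalb, and the triad genes Ryr1, Cacna1s and Jph1. Members were taken as every probe set that the platform annotation gives to one of these symbols alone. Of the 10 genes, 9 had a probe set, among 14754 genes in the table. Casq1 had no probe set in the annotation used here and was not analysed here. Tests covered the 7 members, and 5793 genes in all, whose log2 intensity was above 4 on 6 or more of the 24 arrays. Pln and Sln did not pass, so their levels are described, with values from a fit without that filter. Casq2 exceeded 4 on 22 of the 24 arrays, and the other 6 tested members did so on all 24.

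In a muscle fibre, the action potential runs into the transverse tubules, where the voltage sensor encoded by Cacna1s opens the ryanodine receptor Ryr1 and lets calcium out of the reticulum. Calsequestrin holds the stored calcium inside, and the SERCA pumps return calcium after each contraction. Fast fibres of mice use the pump encoded by Atp2a1, the calsequestrin of Casq1 and large amounts of parvalbumin, while slow fibres use the pump of Atp2a2, carry Casq2 beside Casq1 and hold little parvalbumin. Phospholamban (Pln) and sarcolipin (Sln) are small membrane proteins that inhibit the pumps.

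The series holds 4 groups of 6 male C57BL/6J mice (written C56BL/6J in the sample labels), each mouse with its own array of quadriceps RNA. The groups are high fat day 3, low fat day 3, high fat day 28 and low fat day 28. The high fat diet gave 45% and the low fat diet 10% of energy as palm oil fat. All mice, high fat and low fat alike, first ate a low fat run-in diet for 3 weeks, and were 12 weeks old at day 3 and 16 weeks old at day 28. Mouse numbers of the 2 diets do not interleave in the labels, so the set of animals and the diet cannot be told apart. RNA came from whole muscle, in which more cells of a type and more RNA per cell cannot be told apart. The deposited values are intensities on a linear scale, which the submitters computed with GCRMA, and levels are given here as their log2.

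Any pair of arrays correlated at 0.978 to 0.995 over all probe sets, and the number of arrays limits the precision. Myh4, the fast myosin gene that dominates mouse quadriceps, lay between 13.18 and 13.41 (log2) on all arrays. Of 6 cardiomyocyte markers, 5 were under 4 on every array, and the highest value of any of them was 4.16. The log2 ratio of the 3′ to the 5′ control probe set of beta-actin, a sign of RNA quality, was -0.19, -0.17, -0.14 and -0.04 on 4 arrays and 0.10 to 0.37 on the others. The 4 are low fat day 28 replicate 4, high fat day 28 replicate 6, low fat day 28 replicate 6 and low fat day 3 replicate 2.

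The slow isoforms of calcium handling differed by diet at day 3 and at day 28. For Atp2a2 and Casq2, each of the 6 high fat mice of a day stood above each of the 6 low fat mice. At day 28 Cacna1s was also slightly higher. The fast pump Atp2a1 and the fast buffer Pvalb were not called on either day, nor were Ryr1 and Jph1. In counts, 2 of 7 tested members were called higher at day 3 and none lower, where limma called 14.9% of all tested genes, 7.99% higher and 6.87% lower. At day 28, 3 of 7 were called higher and none lower, against 12.5% of all tested genes, 5.35% higher and 7.18% lower. At an unadjusted p under 0.05 the counts were 3 of 7 on each day, against 29.5% of all tested genes at day 3 and 24.9% at day 28. A call is a Benjamini-Hochberg adjusted p under 0.05 over all tested genes. The median log2 change of the 7 members was 0.01 at day 3 and 0.29 at day 28, beside -0.01 and 0.01 over all tested genes. Groups that did not overlap were found for 2 of 7 members on each day, against 6.09% of tested genes at day 3 and 8.04% at day 28.

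**Figure D1:**
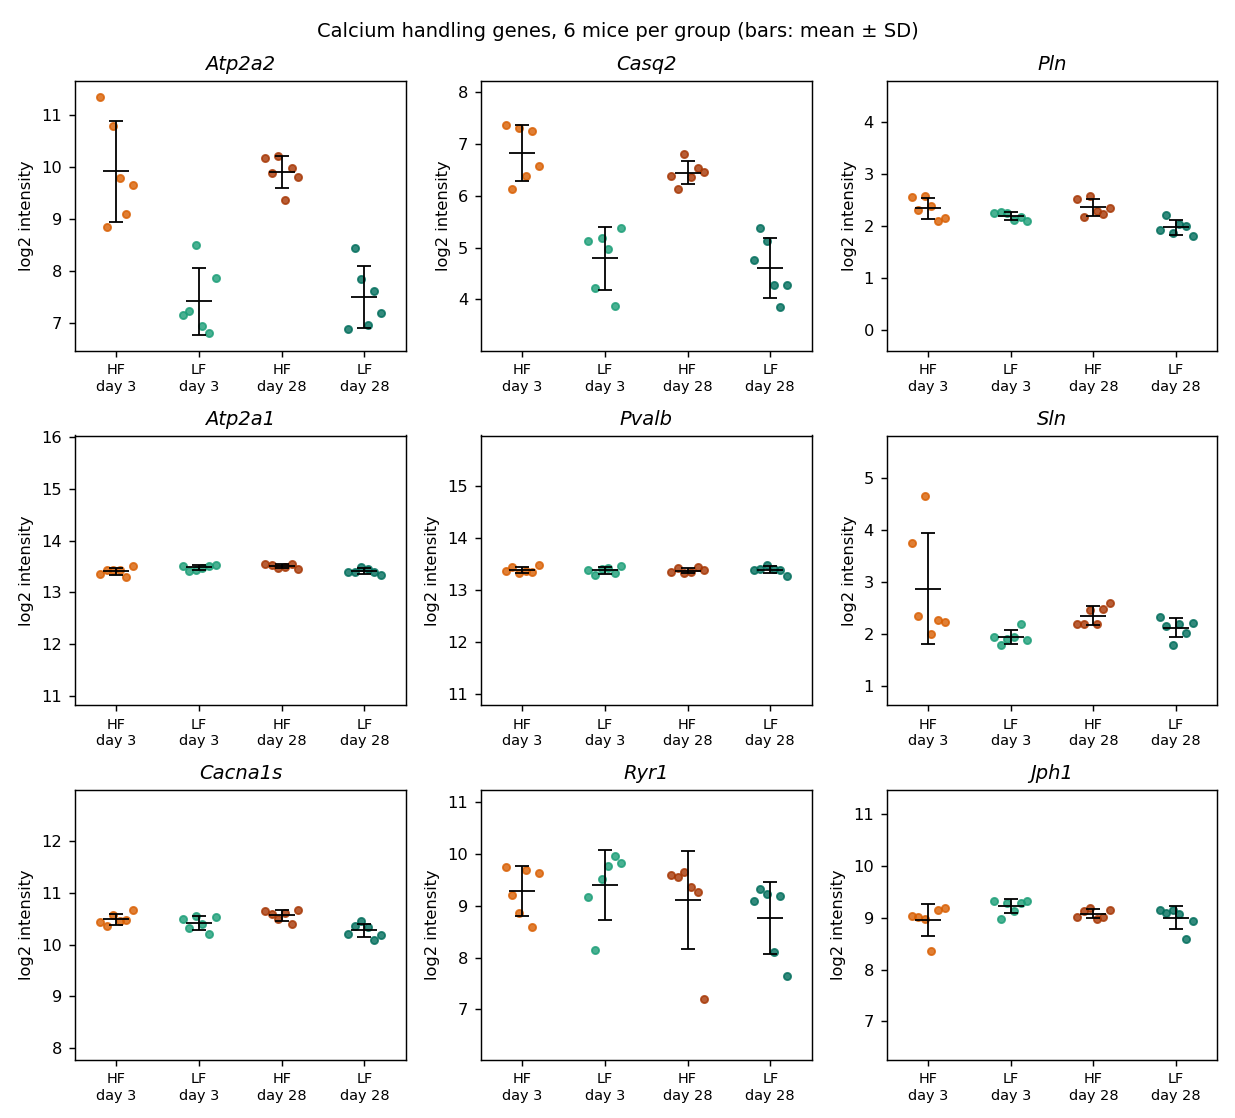
Log2 intensity of the 9 calcium handling genes with a probe set, 1 point per mouse, for high fat (HF) and low fat (LF) mice at day 3 and day 28, with each panel on its own axis. Black bars show the mean and SD of 6 mice. Atp2a2 and Casq2 stand higher in all high fat mice than in any low fat mouse, Sln is high in 2 high fat mice at day 3, and 1 or 2 low points widen the spread of Ryr1 and Jph1.

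Atp2a2 encodes SERCA2, the calcium pump of slow fibres and heart. At day 3 its log2 intensity ran from 8.83 to 11.34 in high fat mice with a median of 9.72, against 6.81 to 8.50 in low fat mice with a median of 7.18. The 2 highest high fat mice were replicate 1 at 11.34 and replicate 3 at 10.78, and no high fat mouse was as low as the highest low fat mouse. The difference was 2.50 ± 0.37 (log2, SE), or 5.67-fold, with a 95% confidence interval of 1.74 to 3.26 (limma adjusted p = 8.53e-05).

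At day 28 Atp2a2 ran from 9.36 to 10.21 in high fat mice with a median of 9.93, against 6.88 to 8.44 in low fat mice with a median of 7.40. Again the groups did not overlap. The difference was 2.42 ± 0.37 (log2, SE), 5.34-fold (interval 1.66 to 3.18, limma adjusted p = 0.000115). High fat mice varied less at day 28, with an SD of 0.31, than at day 3, with an SD of 0.97, while low fat mice had an SD of 0.60 at day 28 and 0.65 at day 3. Whether the spread differed was not tested. The diet effect at day 28 minus that at day 3 was -0.09 ± 0.52 (log2, SE), with an interval of -1.16 to 0.99 and an adjusted p of 0.950.

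Casq2 encodes the calsequestrin of heart and slow fibres. At day 3 it ran from 6.12 to 7.36 (log2) in high fat mice with a median of 6.91, against 3.87 to 5.39 in low fat mice with a median of 5.05. At day 28 it ran from 6.12 to 6.80 in high fat mice with a median of 6.42, against 3.85 to 5.37 in low fat mice with a median of 4.52. The groups stood apart on both days, and the lowest low fat values lay under the filter at 4. The differences were 2.04 ± 0.28 at day 3 (log2, SE, 4.10-fold, interval 1.46 to 2.61, limma adjusted p = 4.01e-05) and 1.84 ± 0.28 at day 28 (3.57-fold, interval 1.26 to 2.41, limma adjusted p = 0.000114). The diet effects of the 2 days differed by -0.20 ± 0.39 (log2, SE, adjusted p = 0.828).

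Pln, the phospholamban gene, whose product inhibits SERCA2 in heart and slow muscle, stayed below 4 on all 24 arrays. Values at day 3 ran from 2.09 to 2.57 (log2) in high fat mice, against 2.10 to 2.27 in low fat mice. Values at day 28 ran from 2.17 to 2.58 in high fat mice, against 1.81 to 2.20 in low fat mice, and the lowest high fat mouse lay just under the highest low fat mouse. In a fit with no filter on low values its change was 0.15 at day 3 (limma adjusted p = 0.399) and 0.38 at day 28 (limma adjusted p = 0.00939). All of these values are dim, so the fold depends on the background correction of the deposited values.

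Sln, the sarcolipin gene, which in mice is found mainly in atria and in oxidative muscles, was above 4 on 1 array. In high fat mice at day 3 it stood at 4.65 in replicate 3 and 3.75 in replicate 1, and between 2.00 and 2.34 in the other 4, against 1.79 to 2.19 in low fat mice. These 2 high fat mice were also the 2 with the highest Atp2a2 and, at 10.57 and 11.35, the highest Myh7, the slow myosin heavy chain. At day 28 Sln ran from 2.18 to 2.59 in high fat mice, against 1.79 to 2.33 in low fat mice. With no filter its change was 0.93 at day 3 (limma adjusted p = 0.0678) and 0.23 at day 28 (limma adjusted p = 0.767). Neither inhibitor passed the filter in these muscles.

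**Figure D2:**
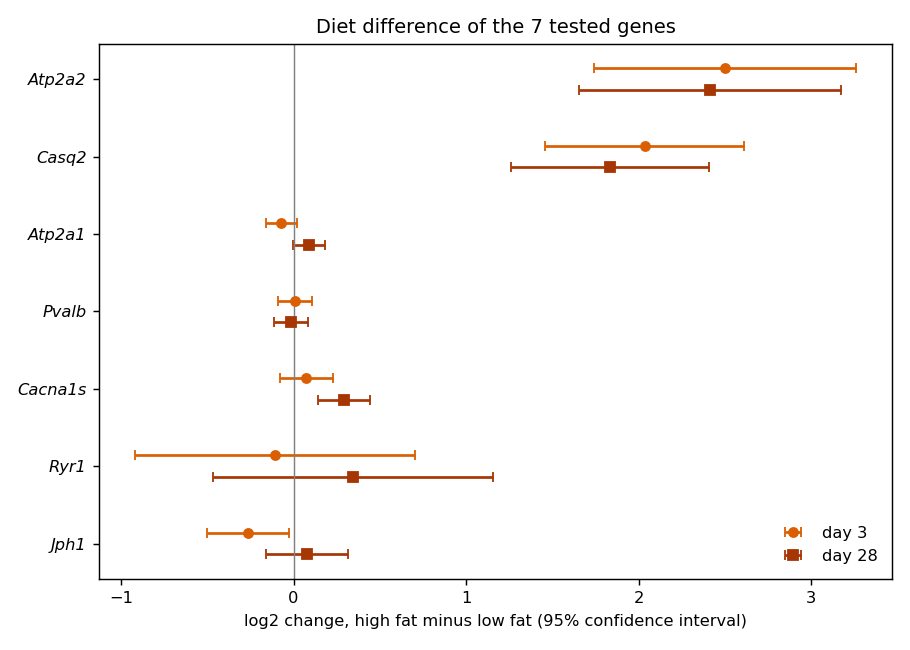
Log2 change of the 7 tested members, high fat minus low fat, at day 3 (circles) and day 28 (squares), with 95% confidence intervals from the limma fit. Atp2a2 and Casq2 lie between 1.84 and 2.50, Cacna1s is above 0 at day 28, and the interval of Ryr1 is the widest among those near 0.

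Atp2a1 encodes SERCA1, the pump of fast fibres. The day 3 values ran from 13.31 to 13.51 (log2) in high fat mice with a median of 13.43, against 13.42 to 13.54 in low fat mice with a median of 13.49. The day 28 values ran from 13.45 to 13.54 in high fat mice with a median of 13.51, against 13.34 to 13.50 in low fat mice with a median of 13.40. The groups overlapped on both days. The change was -0.07 ± 0.04 (log2, SE, interval -0.16 to 0.02, adjusted p = 0.299) at day 3 and 0.09 ± 0.04 (interval -0.000585 to 0.18, adjusted p = 0.203) at day 28. The difference between these effects, 0.16 ± 0.06, had an unadjusted p = 0.0166 and an adjusted p = 0.169, and was not called.

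Pvalb encodes parvalbumin, which binds calcium in the cytosol of fast fibres and speeds relaxation. At day 3 it ran from 13.33 to 13.49 (log2) in high fat mice, against 13.29 to 13.46 in low fat mice, and at day 28 from 13.32 to 13.44 in high fat mice, against 13.27 to 13.48 in low fat mice. The ranges lay almost on top of each other. Its change was 0.01 ± 0.05 (log2, SE, interval -0.09 to 0.10, adjusted p = 0.927) at day 3 and -0.01 ± 0.05 (interval -0.11 to 0.08, adjusted p = 0.892) at day 28. Atp2a1 and Pvalb were among the steadiest genes of the table, with within-group SDs of 0.05 and 0.06 that only 0.293% and 0.483% of tested genes undercut. Both lay within 0.87 and 0.94 log2 units of the highest value in the table, and whether their probes could still show a rise was not tested.

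Since the pumps are the clearest slow and fast pair, the log2 value of Atp2a2 minus that of Atp2a1 was taken within each array. This shows unequal change of the 2 probe sets and not how much of each transcript was present. At day 3 it was -4.60, -4.22, -3.85, -3.64, -2.65 and -2.01 in the high fat mice, against -6.69, -6.54, -6.37, -6.20, -5.68 and -4.94 in the low fat mice. At day 28 it was -4.14, -3.65, -3.64, -3.56, -3.37 and -3.26 in the high fat mice, against -6.52, -6.49, -6.15, -5.79, -5.65 and -4.96 in the low fat mice. Each of the high fat mice lay above all low fat mice of its day. The difference of means was 2.57 at day 3 and 2.33 at day 28 (log2, n = 6 per group), each with p = 0.00216 by a two-sided exact permutation test, the smallest p that its 924 splits allow. The difference of Atp2a1 alone was -0.07 at day 3 and 0.09 at day 28. Atp2a2 alone already separated the diets on both days, and Atp2a1 varied little. The p of this test therefore adds little to the result for Atp2a2.

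**Figure D3:**
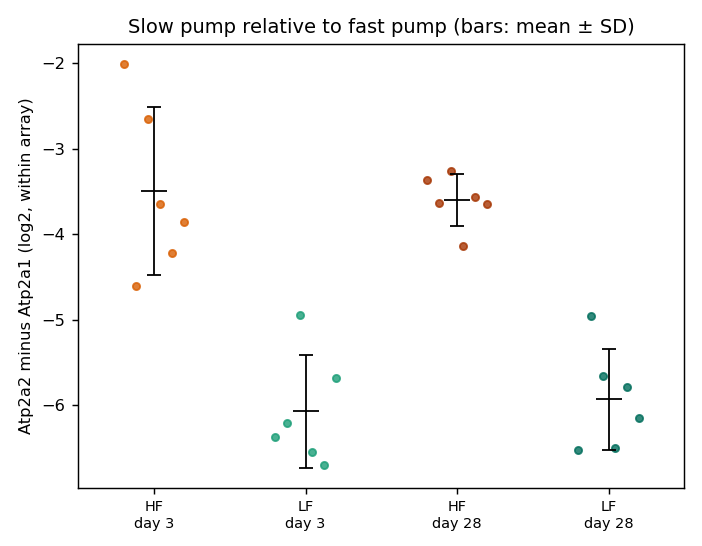
Log2 intensity of Atp2a2 minus that of Atp2a1 within each array, 1 point per mouse, for high fat (HF) and low fat (LF) mice at day 3 and day 28. Bars show mean and SD of 6 mice, and the 6 high fat mice of each day stand above the 6 low fat mice.

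Of the triad genes, which fast and slow fibres share, 1 of 3 was called at day 28 and none at day 3. Of all tested genes 12.5% were called at day 28 and 14.9% at day 3. With 3 genes such counts cannot be told from these shares. Cacna1s, the pore subunit of the dihydropyridine receptor, ran from 10.39 to 10.66 (log2) in high fat mice at day 28 with a median of 10.60, against 10.10 to 10.45 in low fat mice with a median of 10.28. These ranges touch at 1 high fat and 1 low fat mouse. The change at day 28 was 0.29 ± 0.07 (log2, SE, 1.22-fold, limma adjusted p = 0.00953), but without the 4 arrays of lowest beta-actin ratio it was 0.27 and not called (adjusted p = 0.0798). At day 3 Cacna1s ran from 10.35 to 10.66 in high fat mice, against 10.20 to 10.56 in low fat mice, a change of 0.07 ± 0.07 (adjusted p = 0.529). The effects of the 2 days differed by 0.22 ± 0.10, which was not called (unadjusted p = 0.0481, adjusted p = 0.261).

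Ryr1 encodes the calcium release channel of skeletal muscle. Values at day 3 ran from 8.58 to 9.75 (log2) in high fat mice with a median of 9.42, against 8.14 to 9.96 in low fat mice with a median of 9.63. At day 28 it ran from 7.19 to 9.65 in high fat mice with a median of 9.46, against 7.65 to 9.32 in low fat mice with a median of 9.13. The groups overlapped widely. Its change was -0.11 ± 0.39 (log2, SE, interval -0.92 to 0.71) at day 3 and 0.34 ± 0.39 (interval -0.47 to 1.15) at day 28, with adjusted p of 0.885 and 0.637. The 4 lowest Ryr1 values, 7.19, 7.65, 8.11 and 8.14, came from the 4 arrays with the lowest beta-actin ratio named above. Without those arrays the change was -0.36 at day 3 (adjusted p = 0.216) and 0.28 at day 28 (adjusted p = 0.477), still not called.

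Jph1 encodes junctophilin 1, which ties the reticulum to the transverse tubule. The day 3 values ran from 8.36 to 9.20 (log2) in high fat mice with a median of 9.02, against 8.98 to 9.33 in low fat mice with a median of 9.29. Values at day 28 ran from 8.98 to 9.18 in high fat mice, against 8.58 to 9.16 in low fat mice. The change was -0.26 ± 0.12 (log2, SE, interval -0.50 to -0.03, unadjusted p = 0.0318, adjusted p = 0.128) at day 3 and 0.08 ± 0.12 (adjusted p = 0.733) at day 28. Without high fat replicate 4, the array at 8.36, the value at day 3 was -0.14 (adjusted p = 0.301). The 2 lowest arrays, this one and low fat day 28 replicate 5 at 8.58, had the 2 highest beta-actin ratios of the series (log2 0.37 and 0.36), and the part of RNA quality was not tested.

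No tested member passed the test between the days. The difference between the day 28 and day 3 diet effects was called for 0 of 7 members, with 3 at an unadjusted p under 0.05 (Atp2a1, Cacna1s and Jph1). Of all tested genes, limma called 1.38%, and 18.8% had an unadjusted p under 0.05. Day 28 against day 3 called 0 of 7 on high fat, with 1 at an unadjusted p under 0.05 (Atp2a1, 0.09), beside 0.552% of all genes called and 14.4% at that unadjusted p. On low fat it called 0 of 7, with 0 at an unadjusted p under 0.05, beside 0.345% of all genes called and 16.6% at that unadjusted p. For Atp2a2 the change over time was -0.01 ± 0.37 (log2, SE) on high fat and 0.08 ± 0.37 on low fat. For Casq2 it was -0.38 ± 0.28 on high fat and -0.18 ± 0.28 on low fat. Age goes with the day in these mice. Both diet comparisons share samples with the comparisons over time.

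Slow fibre genes outside calcium handling moved with Atp2a2 and Casq2. Of 9 slow fibre markers with a probe set, 9 were called higher at day 3 and 7 at day 28, with median log2 changes of 4.72 and 4.15. Of 10 fast fibre markers, 2 were called higher at day 3 (Myh2 and Tpm1) and 1 at day 28 (Myh2). Among all tested genes 7.99% were called higher at day 3 and 5.35% at day 28. The summed intensity of the slow markers ran from 6748 to 24387 in high fat mice at day 3, against 2131 to 4812 in low fat mice, and from 7016 to 11480 in high fat mice at day 28, against 2502 to 4473 in low fat mice. That of the 10 fast markers ran from 101224 to 104781 in high fat mice at day 3, against 95435 to 101520 in low fat mice. At day 28 it ran from 100794 to 105956 in high fat mice, against 94139.6 to 98752.5 in low fat mice, without overlap. No slow marker was under 4 (log2) on all 24 arrays. In low fat mice at day 3 the mean linear intensities of Myh7, Tnnc1 and Tnni1 were 46.5, 45.2 and 13.1. Other markers therefore carry most of the slow sum there, and the sums are no measure of fibre content. The changes of Myh7 (5.60 at day 3 and 5.02 at day 28), Tnni1 (5.25 and 4.87) and Tnnc1 (4.72 and 4.15), slow isoforms of myosin and troponin, were larger on this scale than those of Atp2a2 and Casq2. Myh7 was as low as 2.23 in low fat mice, where a fold depends on the background correction. The part of fibre content in the calcium handling differences was not tested.

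Pln and Atp2a2 are also used by smooth muscle. Of 6 tested smooth muscle and pericyte markers, 3 were called higher at day 3 (Myh11, Pdgfrb and Tagln) and 1 at day 28 (Rgs5). Of all tested genes 7.99% and 5.35% were called higher. The median log2 changes of these markers were 0.40 and 0.35. The difference between days was called for none of them, against 1.38% of all tested genes. The summed intensity of the 8 with a probe set ran from 3146 to 3895 in high fat mice at day 3, against 3097 to 3448 in low fat mice. The day 28 values ran from 3677 to 4309 in high fat mice, against 3169 to 3647 in low fat mice, and 2 of the 8 were under 4 (log2) on all arrays. The highest value of any of the 8 was 11.79 (log2). The sums therefore follow mainly the brightest probe set and are no measure of smooth muscle content. The part of smooth muscle in the values of Pln and Atp2a2 was not tested.

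Markers of other cells in the muscle also moved with diet. Of 7 tested endothelial markers, 6 were called higher at day 3 and 1 at day 28, against 7.99% and 5.35% of all tested genes. On each day 6 of the 7 had an unadjusted p under 0.05, and their median log2 change was 0.67 at day 3 and 0.37 at day 28. Such an unadjusted p was found for 29.5% of all tested genes at day 3 and 24.9% at day 28. The summed intensity of the 8 with a probe set was 724 to 829 in high fat mice at day 3, against 485 to 612 in low fat mice. Of 8 fibroblast and tendon markers, 5 were called higher at day 3 and 2 at day 28, with 5 at an unadjusted p under 0.05 in either direction on each day. Of 5 tested adipocyte markers, 3 were called lower at day 3 and 5 at day 28, against 6.87% and 7.18% of all tested genes, with 5 at an unadjusted p under 0.05 on each day. Their list had summed intensities at day 28 of 2747 to 4146 in high fat mice, against 7130 to 13417 in low fat mice. At day 3, 1 of 7 tested macrophage markers was called lower, with 3 at an unadjusted p under 0.05, and at day 28 all 7 were called lower. The brown fat markers Cidea and Ucp1 were called lower at day 28. The difference between the diet effects of the 2 days was called for no marker of these lists, and for 1.38% of all tested genes. The part of these cells in the calcium handling differences was not tested.

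Within groups, mice with more slow myosin also had more of the slow pump. After removing the group means, the deviations of Atp2a2 and Myh7 over 24 arrays had a Pearson r of 0.867 and a Spearman rho of 0.898, each with a permutation p = 1e-05, the smallest that 100000 resamples within groups allow (adjusted p = 9e-05 over the 9 pairs computed). Pearson r was 0.936 to 0.987 within the 4 groups, and 0.855 without the 2 arrays of Atp2a2 farthest from the median. Myh7 was above 4 (log2) in only 2 of 6 low fat mice at day 3 and 3 of 6 at day 28. The r of 0.936 in low fat mice at day 3 rests on replicates 3 and 6, with Myh7 at 7.23 and 6.73. The other mice of that group lay at 2.23 to 2.82, where no ordering can be read. The low fat mouse with the most Myh7, day 28 replicate 2 at 7.86, had Atp2a2 at 8.44. The high fat mouse with the least, day 3 replicate 2 at 7.96, had 8.83.

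Casq2 followed Myh7 more loosely, with r = 0.584 (permutation p = 0.0154, adjusted p = 0.0346), rho = 0.571 (adjusted p = 0.0493), an r of 0.332 to 0.688 within groups and 0.658 without the 2 farthest arrays. Atp2a2 with Casq2 had r = 0.589 (adjusted permutation p = 0.0313), rho = 0.571 (adjusted p = 0.0493) and 0.538 without the 2 farthest arrays. Atp2a2 with the dim Pln had r = 0.596 (adjusted permutation p = 0.0303), while its rho of 0.472 did not pass (adjusted p = 0.0773). The remaining 5 pairs did not pass. Among them, the slow pump gave no relation past the test with the fast pump (r = 0.00, adjusted permutation p = 0.998, and 0.25 without the 2 farthest arrays) or with Pvalb (r = 0.06, adjusted permutation p = 0.898). For Atp2a2 with Sln r was 0.498 (adjusted permutation p = 0.166, rho 0.217), positive in 2 of 4 groups. Casq2 with Pln had r = 0.244 (adjusted permutation p = 0.336), and Sln with Pln had r = 0.525 (adjusted permutation p = 0.123), which was 0.289 without high fat day 3 replicates 1 and 3.

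**Figure D4:**
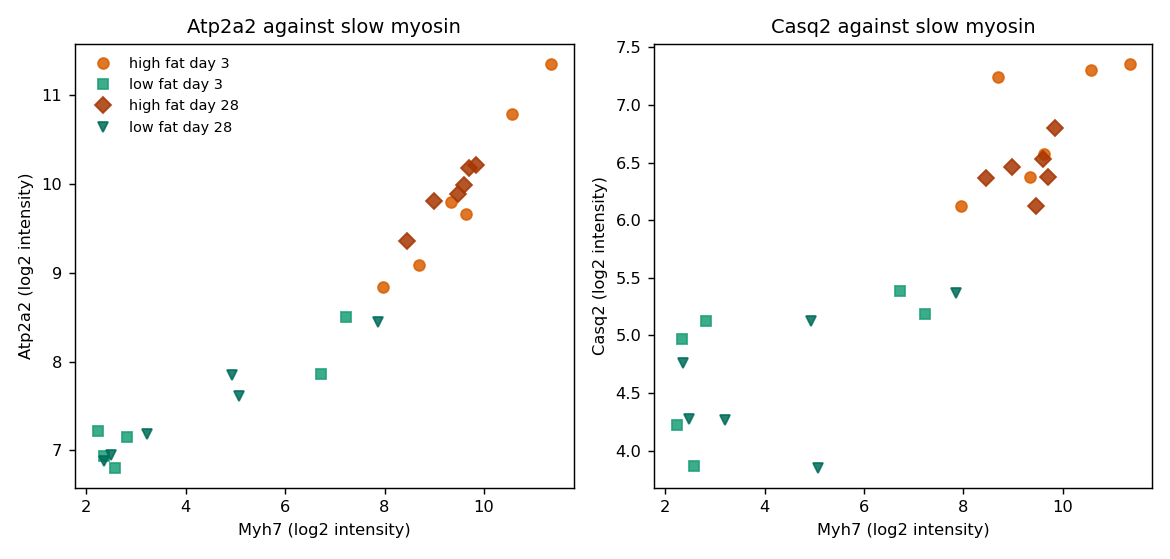
Log2 intensity of Atp2a2 (left) and Casq2 (right) against that of the slow myosin gene Myh7, 1 point per mouse, with shapes for the 4 groups. Atp2a2 rises with Myh7 inside every group, with r between 0.936 and 0.987, and Casq2 does so with more scatter. Among low fat mice Myh7 is above 4 in only 2 of 6 at day 3 and 3 of 6 at day 28, so few mice carry r there.

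The genes whose deviations from the group means were most like those of Atp2a2 over 24 arrays were Tnni1 (r = 0.911), Tnnc1 (0.904), Tnnt1 (0.903), Myh7 (0.867) and Pdlim1 (0.855). All 5 were called higher on high fat on both days. For Casq2 they were Myom3 (0.838), Alg10b (0.824), Hccs (0.808), Sspn (0.783) and Mtus1 (0.774). Of these, Myom3 was called higher on both days (2.38 and 1.80), Hccs at day 3, and Sspn and Mtus1 at day 28, and Alg10b was not called. For Pvalb they were Ckm (0.927), Cox6a2 (0.818), Rtn2 (0.818), Cd81 (0.812) and Vdac1 (0.766), none of which was called by diet on either day. These r values describe the most similar of 5793 genes and carry no test.

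The start region of Casq2, which rose, and of 2 fast members that were not called is shown for comparison, from RefSeq on GRCm38.p6, where 7 of the 10 members matched. Each is 300 bases, 250 before and 50 after the annotated gene start, 5′ to 3′ on the gene's strand. Casq2 is at chr3:102086165-102086464 (plus strand), Pvalb at chr15:78206351-78206650 (minus strand, 1 of 2 annotated starts) and Atp2a1 at chr7:126463024-126463323 (minus strand). Capitals mark matches on either strand to the E-box (CANNTG), the MCAT element (CATTCC), the NFAT core (GGAAA), the TATA box (TATAAA), the MEF2 site and the CArG box.
Casq2: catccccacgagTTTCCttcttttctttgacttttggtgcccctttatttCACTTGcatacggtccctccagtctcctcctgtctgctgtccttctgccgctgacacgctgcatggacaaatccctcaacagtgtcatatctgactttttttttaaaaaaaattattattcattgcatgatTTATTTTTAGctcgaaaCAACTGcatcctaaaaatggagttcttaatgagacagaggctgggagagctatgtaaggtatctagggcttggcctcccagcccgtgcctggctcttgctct
Pvalb: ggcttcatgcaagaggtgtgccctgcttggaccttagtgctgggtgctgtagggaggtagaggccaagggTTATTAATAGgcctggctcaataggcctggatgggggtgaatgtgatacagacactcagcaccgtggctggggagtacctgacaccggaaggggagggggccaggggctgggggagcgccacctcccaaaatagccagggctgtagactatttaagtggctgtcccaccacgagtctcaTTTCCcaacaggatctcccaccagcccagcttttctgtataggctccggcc
Atp2a1: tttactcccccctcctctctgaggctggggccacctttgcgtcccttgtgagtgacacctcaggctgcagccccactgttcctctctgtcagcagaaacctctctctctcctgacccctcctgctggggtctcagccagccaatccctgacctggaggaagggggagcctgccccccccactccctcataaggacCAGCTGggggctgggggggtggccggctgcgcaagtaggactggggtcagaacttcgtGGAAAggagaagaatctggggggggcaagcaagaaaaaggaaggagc

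The Casq2 window held 2 E-boxes, starting 200 and 52 bases before the gene start, 1 NFAT core at 238 and 1 MEF2 match at 69. The Pvalb window held 1 MEF2 match at 180 and 1 NFAT core at 1, and the Atp2a1 window held 1 E-box at 55 and 1 NFAT core just after the start. E-boxes are in 72.3% and NFAT cores in 61.3% of the 32851 promoter windows of this length, and MEF2 matches in 3.19%. None of the 3 windows matched the MCAT element (14.7% of windows), the TATA box (13.6%) or the CArG box (1.63%), and none of the matches overlapped another. A MEF2 match stood in the window of Casq2, which rose, and in the window shown of Pvalb, which was not called. The window of the other annotated Pvalb start, not shown, held 2 E-boxes and no MEF2 match or NFAT core. A match is a run of letters and no measured site.

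Among 91 other genes of excitation-contraction coupling and calcium signalling, 78 had a probe set and 56 were tested. At day 3, 4 were called higher and 2 lower, which is 10.7% against 14.9% of all tested genes. At day 28, 5 were higher and none lower, which is 8.93% against 12.5%. At an unadjusted p under 0.05 the counts were 16 of 56 at day 3 and 10 of 56 at day 28, against 29.5% and 24.9% of all tested genes. Median log2 changes were -0.02 at day 3 and 0.06 at day 28. Most genes of the list were not called on either day.

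Myoz2, or calsarcin 1, which ties calcineurin to the Z-disc of slow and cardiac muscle, had the largest change of the list. At day 3 it ran from 9.90 to 11.27 (log2) in high fat mice, against 6.50 to 9.12 in low fat mice, and at day 28 from 9.98 to 10.53 in high fat mice, against 7.83 to 9.38 in low fat mice. Groups did not overlap, and the changes were 2.24 ± 0.34 (log2, SE, limma adjusted p = 0.000111) and 1.75 ± 0.34 (limma adjusted p = 0.00119). Chrna1, the alpha subunit of the muscle acetylcholine receptor, ran from 5.69 to 6.34 in high fat mice at day 3, against 4.87 to 5.43 in low fat mice. At day 28 it ran from 5.61 to 6.03 in high fat mice, against 4.60 to 5.35 in low fat mice. It rose by 0.78 ± 0.14 on both days (limma adjusted p = 0.000727 and 0.000664), and its groups stood apart as well.

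Nfatc1, a transcription factor that calcineurin activates, rose by 0.26 ± 0.08 at day 3 (limma adjusted p = 0.0276) and 0.31 ± 0.08 at day 28 (limma adjusted p = 0.00944). Of the calcineurin catalytic subunits, Ppp3ca was lower at day 3, by -0.20 ± 0.07 (limma adjusted p = 0.0494), a call lost under 23 of 33 alternatives. Ppp3cb was higher at day 28, by 0.20 ± 0.06 (limma adjusted p = 0.0199). Calm2, a calmodulin gene, rose by 0.42 ± 0.12 at day 3 (limma adjusted p = 0.0250) and had 0.09 ± 0.12 at day 28 (adjusted p = 0.699). These steps are small beside those of Myoz2, and the ranges of the diets overlapped in each case but Nfatc1 at day 28.

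Cacng1, the gamma subunit of the same receptor as Cacna1s, ran from 9.85 to 10.02 (log2) in high fat mice at day 28, against 9.51 to 9.70 in low fat mice. The groups stood apart, with a change of 0.34 ± 0.09 (log2, SE, limma adjusted p = 0.0101), not called without the 4 arrays of lowest beta-actin ratio (0.32, adjusted p = 0.0784). At day 3 its change was -0.07 ± 0.09 (adjusted p = 0.609), and the effects of the days differed by 0.41 ± 0.12 (adjusted p = 0.0733). For the difference between the days, 1 of the 56 tested genes of the list was called (1.79%), against 1.38% of all tested genes. Larger differences in the list, up to 1.35, were not called. The gene called was Tmem38a, the TRIC-A potassium channel that balances charge during calcium release. Its diet effects differed by 0.33 ± 0.08 (limma adjusted p = 0.0452), a call lost under 20 of 32 alternatives. Values at day 3 ran from 11.14 to 11.29 in high fat mice, against 11.29 to 11.58 in low fat mice, a change of -0.19 ± 0.06 (limma adjusted p = 0.0304). Values at day 28 ran from 11.15 to 11.42 in high fat mice, against 11.11 to 11.31 in low fat mice, a change of 0.14 ± 0.06 (adjusted p = 0.131).

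**Figure D5:**
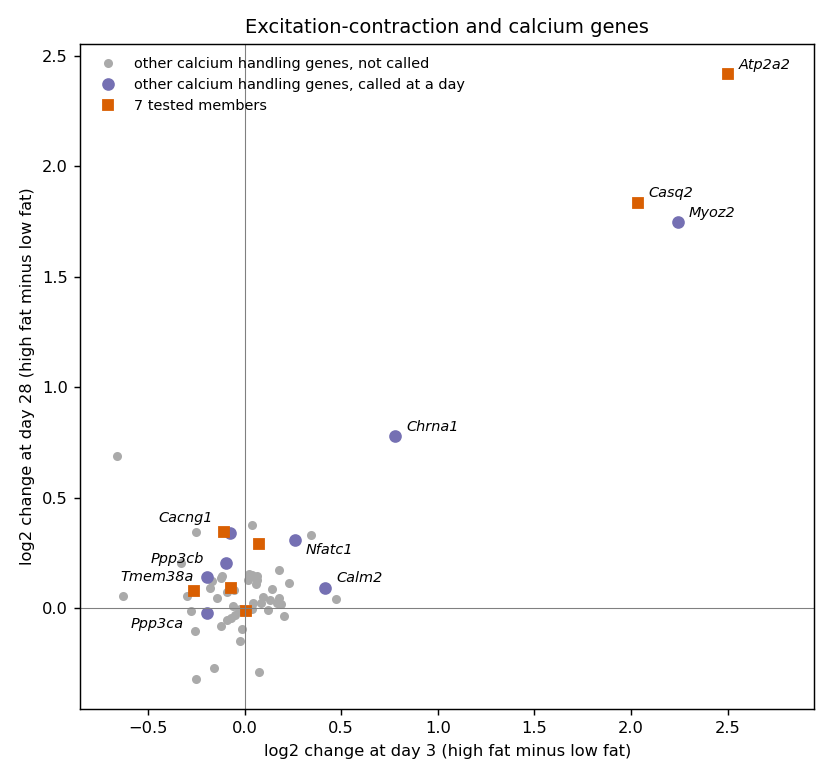
Log2 change by diet (high fat minus low fat) at day 3 (x axis) and day 28 (y axis) of the 7 tested members (squares) and of 56 other calcium and excitation-contraction genes (circles, darker where called on either day). Atp2a2, Casq2 and Myoz2 lie far from the rest, and Chrna1 follows at 0.78 on both days.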

How the data were processed

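Quadriceps RNA of 24 mice was hybridised to 1-colour Affymetrix arrays, 1 mouse per array. The deposited intensity of each probe set came from GCRMA, per the submitters' processing notes, a method that corrects background from probe sequence. No version of it is given in the labels. Array medians ran from 6.56 to 6.90 in linear intensity, not log2. Folds of dim genes depend on its background correction.

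Log2 of the intensity was taken with no offset. Of 16361 probe sets, 64 controls, 589 of several symbols and 937 not listed in the annotation were left out. For a gene with several probe sets the one of highest mean was used. Group means were fitted to all 24 arrays with limma 3.58.1 in R 4.3.3 (20 residual degrees of freedom, two-sided). P-values were adjusted by Benjamini-Hochberg over the 5793 tested genes. Levels are those of the deposited arrays, errors are SE of the fit, and intervals are 95%. Fits were tested on simulated data. Exact and permutation tests used Python 3.11.15 and numpy 2.4.6.

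Members, lists and named genes were chosen with earlier results of these data known. All members are named. Of the calcium list, genes called by diet are named (at most 12), and for Atp2a2, Casq2 and Pvalb the 5 genes of most similar deviations.

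Alternatives were quantile normalization, filters, array weights, the arrays fitted, a replicate block, arrays left out and beta-actin ratios.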

Additional observations from a re-analysis of the deposited data

Results flagged for a closer look

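In groups of 6 mice, an array was marked when its distance to the nearest other, as a share of the group's range, exceeded the 95% critical value of Dixon, which chance gives in about 1 of 20 groups. Of 36 groups of member values, 4 had such an array. Ryr1 stood at 7.19 (log2) in high fat day 28 replicate 6, where the others ran from 9.27 to 9.65. That array had the second lowest beta-actin ratio (log2 -0.17). Jph1 stood at 8.36 in high fat day 3 replicate 4, where the others ran from 8.98 to 9.20, and at 8.58 in low fat day 28 replicate 5, where the others ran from 8.94 to 9.16. These 2 arrays had the highest beta-actin ratios (0.37 and 0.36). Sln stood at 2.19 in low fat day 3 replicate 5, where the others ran from 1.79 to 1.94, all far below the filter at 4. The part of RNA quality in these values was not tested.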

How the results depend on the processing

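Atp2a2 and Casq2 were called on both days under all 33 alternatives, with Atp2a2 between 2.22 and 2.72 at day 3 and 2.20 and 2.61 at day 28, and Casq2 between 1.82 and 2.21 and between 1.64 and 1.99. Atp2a1, Pvalb, Ryr1 and Jph1 were called on neither day under any. With a replicate block, 2 members were called at day 3 and 3 at day 28, as without it, and the slow minus fast pump difference had p = 0.03125 on both days in an exact test over pairs, the smallest it allows. The block changed no call of a member. Deviations of samples of equal number correlated at -0.08 to 0.54, over 0.1 in 6 of 12 pairs. Each array was set against the 6 arrays of the other diet on its day, so 1 in 6 would match without any link. Of 24 arrays, 5 were most like their own number. The highest value was that of the day 28 pair of replicate 6. Whether samples of equal number shared more than the number was not tested. Leaving out 1 array at a time gave 2 members at day 3 and 3 at day 28 throughout, and pump differences of 2.28 to 2.80 and 2.21 to 2.52.

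Values near 0 turned sign. Pvalb at day 3 was -0.00438 with array weights, -0.0116 without the 4 arrays of highest and -0.0112 without the 4 of lowest beta-actin ratio (an alternative added after seeing the data). Leaving out 1 array gave -0.0112 to 0.0241 for Pvalb and -0.356 to 0.0348 for Ryr1 at day 3, -0.0379 to 0.00493 for Pvalb, -0.00548 to 0.109 for Jph1 and -0.0436 to 0.00427 for Ppp3ca at day 28, -0.115 to 0.0201 for Cacng1 at day 3, and -0.305 to 0.198 for the difference of Atp2a2 effects. None of these was called. At day 28, 4 members were called without a filter, Pln being added, and 2 without the 4 arrays of lowest beta-actin ratio. Among the calcium list, calls were lost for Nfatc1 at day 3 under 9 alternatives, Tmem38a at day 3 under 8, Calm2 at day 3 under 7 and Ppp3cb at day 28 under 4, and the cause was not tested. Of all genes, 861 were called at day 3 (507 with only the arrays compared) and 726 at day 28 (403 without the 4 arrays of lowest ratio), and the difference between days had 80 (6 to 278). Day 28 against day 3 called 32 on high fat (3 to 106) and 20 on low fat (0 to 132). With quantile normalization, day 28 calls split into 401 higher and 359 lower, against 310 and 416 without it, and those of the difference between days into 61 and 42, against 39 and 41. The slow minus fast calsequestrin comparison was not run, since Casq1 has no probe set here.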
